A study of Mus musculus with 2 samples.

Results

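Keratins are the proteins of the cytoplasmic filaments of epithelial cells, and their genes were read here in hair follicle stem cells of mouse skin. Members were the genes whose symbol is Krt followed by a number and at most 1 letter, which leaves out keratin-associated proteins and pseudogenes named as such. This gave 54 genes of 42392 gene IDs in the table, 28 of them type I and 26 type II. All were placed on the GRCm38 genome, 27 on chromosome 11 and 27 on chromosome 15. The RefSeq annotation lists Krt74 as a transcribed pseudogene.

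The series holds RNA-seq of 2 control samples of sorted skin cells, 1 in anagen, titled anagen II-III, and 1 in telogen. Anagen is the growth phase of the follicle, telogen its resting phase. Both samples came from female mice with the genotype K15-CrePGR; Shh+/-, so they kept 1 functional copy of Shh. The K15-CrePGR transgene uses a Krt15 promoter, that of a member of this family, to make a Cre recombinase that depends on a progesterone receptor ligand. RU486, which is such a ligand, had been given to both over 8 days. The cells had been sorted for high integrin alpha 6 and for CD34, and against SCA1, CD140a, CD117, CD31 and CD45. Neither the age of the mice nor the number pooled is stated in the labels.

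Only the anagen library is described, because its column alone carries a name that fits 1 sample. The telogen library was not analysed here, so no difference between the stages is given. With 1 library there is no replicate error and no test, and each value is a description of that library. Values are TPM, an estimate of transcript abundance, which are scaled for gene length and can be compared between genes, but keep no read depth. Of 8 listed bulge markers, Krt15 is itself a keratin, and Cd34 and Itga6 encode proteins used in the sort. The other 5, all genes of bulge identity, ran between 16.1 TPM for Nfatc1 and 171 TPM for Lhx2. Markers of other cells were also present, some at higher levels than these. The 6 fibroblast markers ran between 1.44 and 287 TPM, the 6 melanocyte markers between 0.602 and 12.6 TPM, the 4 leukocyte markers between 0.264 and 13.2 TPM and the 3 endothelial markers between 1.66 and 4.65 TPM. The 7 sebaceous gland markers ran between 0.211 and 93.7 TPM. In such bulk RNA, fewer cells of a type and less RNA per cell cannot be told apart.

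A keratin filament is built from pairs of 1 type I (acidic) and 1 type II (basic) chain, so an epithelial cell uses keratins of both types. Which pair it uses changes with its state. Basal keratinocytes use KRT5 with KRT14, and bulge stem cells add KRT15. Cells that leave the basal layer of the epidermis switch to KRT1 with KRT10. The hair follicle has further sets for its companion layer, its inner root sheath (the sleeve that guides the growing hair) and the hair shaft itself.

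Keratin genes were read at levels from 0 to 3833 TPM, and 4 genes carried nearly all of the total. Of the 54 members, 37 were at 1 TPM or more, which is 68.5%, against 56.1% of all nuclear protein-coding genes. The median over all members was 3.81 TPM, against 2.45 TPM over all protein-coding genes. The family therefore lay close to the background in the middle of its range. At 10 TPM or more there were 19 members, or 35.2%, against 31.9% of protein-coding genes. Further up, 6 members, or 11.1%, reached 100 TPM, against 3.48% of protein-coding genes, and 4 members, or 7.41%, reached 1000 TPM, against 0.28%. All members together summed to 11092 TPM, which was 1.11% of all TPM and 2.32% of that of nuclear protein-coding genes. Nuclear protein-coding genes held 47.8% of all TPM and genes of the mitochondrial genome 18.8%.

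The 4 genes above 1000 TPM were Krt5, Krt15, Krt17 and Krt14. Krt5, the type II keratin of basal keratinocytes, led the family at 3833 TPM and ranked 4th among all nuclear protein-coding genes. Krt15, the type I keratin that marks the bulge, ranked 7th with 3364 TPM. Krt17, a type I keratin of the follicle's outer root sheath and of wounded epidermis, ranked 28th with 1680 TPM. Krt14, the type I partner of Krt5 in basal cells, ranked 37th with 1464 TPM. These 4 genes held 93.2% of the keratin TPM. Below them the ranking broke off: Krt10 was next at 138 TPM, so that Krt14 stood 10.6-fold above it. Another 15 members lay between 10 and 1000 TPM, 18 between 1 and 10 TPM and 17 under 1 TPM. The 17 lowest genes summed to 4.87 TPM. The genes nearest the 1 TPM level were Krt78 at 1.08 TPM and Krt36 at 1.08 TPM just above it, and Krt90 at 0.998 TPM and Krt33b at 0.883 TPM just below it.

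**Figure D1:**
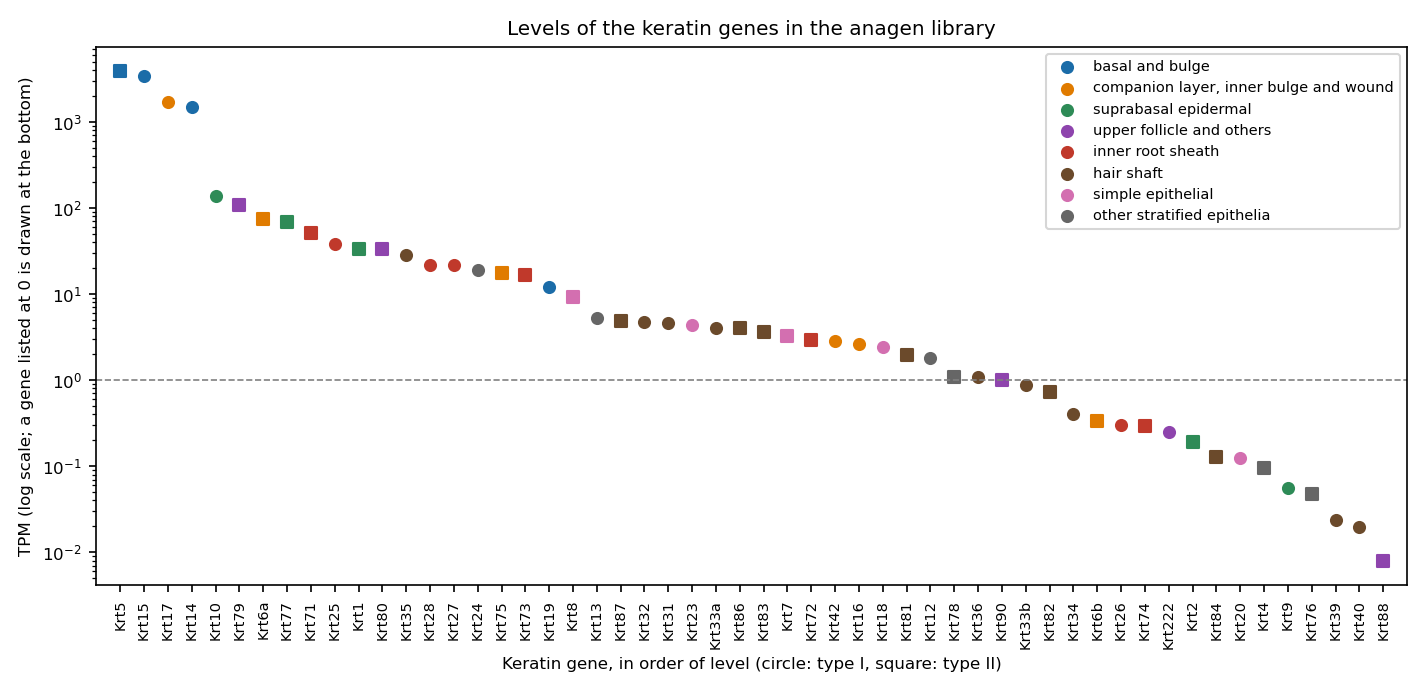
Level of each of the 54 keratin genes in the anagen library, in TPM on a log axis, ordered from highest to lowest. Colours give the class of the gene, circles type I and squares type II, and the dashed line marks 1 TPM. The 4 genes at the left lie above 1000 TPM and the next, Krt10, at 138 TPM. Krt88, listed at 0, is drawn at the bottom.

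The basal and bulge class of 4 genes summed to 8674 TPM, or 78.2% of the family, with a median of 2414 TPM. Within it, Krt5 and Krt15 were close in level, with Krt15 at 0.878 times Krt5. Krt14 was at 0.382 times Krt5, and Krt15 was 2.30-fold above Krt14. The type I genes of the class, Krt14, Krt15 and Krt19, summed to 4840 TPM, 1.26 times the 3833 TPM of Krt5, the only type II gene in it. Krt19, a type I keratin of simple epithelia and of the mouse bulge, was far below the others at 11.9 TPM. Krt15 exceeded it 283-fold.

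In the class of the companion layer, the inner bulge and wounded epidermis, 1 of the 6 genes held most of the level. This class summed to 1777 TPM, 16.0% of the family, of which Krt17 made up 1680 TPM. Krt6a, a type II keratin of the companion layer and inner bulge, followed at 73.9 TPM, and Krt75, the type II keratin of the companion layer, at 17.6 TPM. The type I genes Krt42, found in mouse nail, and Krt16, which rises in wounded and hyperproliferative epidermis, stood at 2.85 and 2.65 TPM. Krt17 was thus 634-fold above Krt16, although both are known as stress keratins. Krt6b, a near-identical copy of Krt6a, was at 0.332 TPM. Because reads can be split between these copies, the 223-fold gap between Krt6a and Krt6b is uncertain. Krt14, Krt16, Krt17 and Krt42 are also similar in sequence, and reads they share could move between them.

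Type I and type II sums were close in some classes and far apart in others. Over all members, type I keratins summed to 6824 TPM and type II keratins to 4269 TPM, a ratio of 1.60. Without Krt17, an alternative chosen after seeing the data, the ratio was 1.205. Without the 4 genes above 1000 TPM it was 0.724, so that the type II sum was then the larger. In the companion and wound class the type I sum of 1685 TPM was 18.4 times the type II sum of 91.8 TPM. Krt17, also known from the outer root sheath, made up 1680 TPM of that type I sum. The ratio of 18.4 therefore rests on placing Krt17 in this class. Krt17 was 95.5 times the level of Krt75, its only listed partner. Type II genes of other classes, such as Krt5 at 3833 TPM, were not paired with it here. Krt16 was at 0.0359 times Krt6a. In the inner root sheath class, by contrast, the sums were 81.7 TPM for type I and 71.1 TPM for type II, a ratio of 1.15. The suprabasal class had 138 TPM of type I and 102 TPM of type II, a ratio of 1.35. Other classes lay between these extremes. The ratio was 2.92 in the hair shaft class, which lacks Krt85, and 0.557 in the simple epithelial class.

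**Figure D2:**
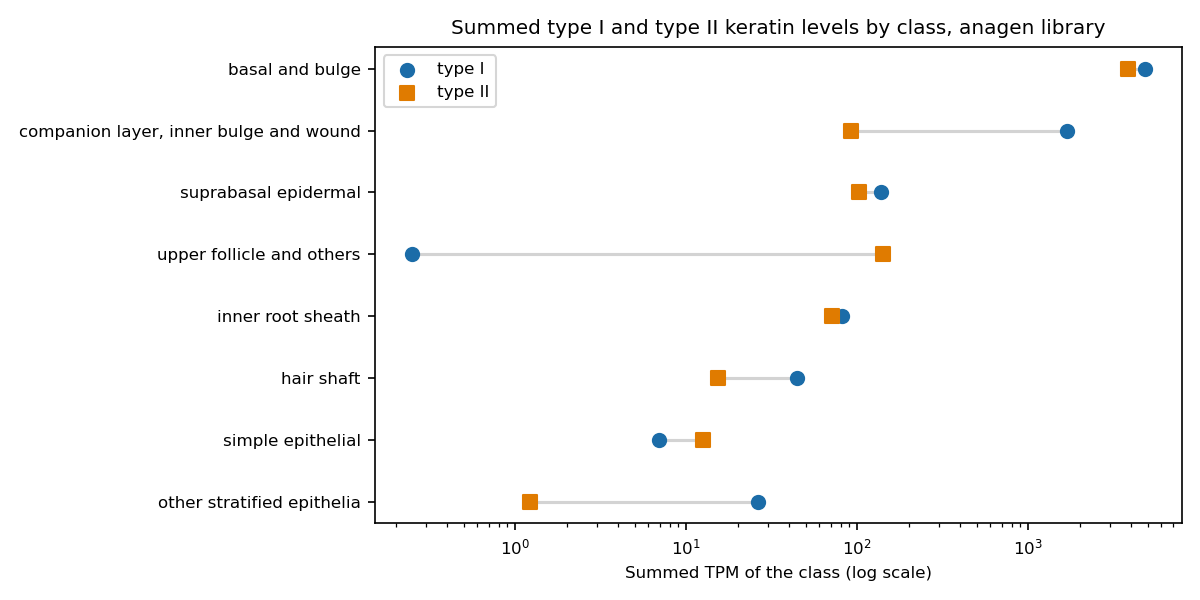
Summed TPM of the type I (circles) and type II (squares) keratin genes of each class in the anagen library, on a log axis. The symbols lie close together in the basal and bulge, suprabasal and inner root sheath classes, with ratios of 1.26, 1.35 and 1.15. They lie far apart in the companion layer, inner bulge and wound class, where the ratio was 18.4 and rests on Krt17. They are also far apart in other stratified epithelia, and in upper follicle and others, whose 1 type I gene is Krt222 at 0.249 TPM. The hair shaft and simple epithelial classes had ratios of 2.92 and 0.557.

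Suprabasal epidermal keratins were present at levels well below the basal ones. Krt10, the type I keratin of the spinous layer, stood at 138 TPM and its type II partner Krt1 at 33.0 TPM, a ratio of 4.18. Krt77, a type II keratin known from sweat ducts, was 2.09-fold above Krt1, at 69.0 TPM. The remaining members of the class were near 0. Krt2, of the upper epidermis, was at 0.193 TPM and Krt9, of palm and sole skin, at 0.0559 TPM. Of 9 suprabasal markers, 2 of which are Krt10 and Krt1, 8 reached 1 TPM, against 56.1% of protein-coding genes. Highest were Krtdap at 769 TPM and Sbsn at 359 TPM, which encode secreted proteins. Lor and Flg, genes of the cornified layer, were lowest at 6.77 and 0.00794 TPM. The part of suprabasal cells in these keratin levels was not tested.

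Inner root sheath keratins formed a group of intermediate level. Of the 8, 6 were at 1 TPM or more, against 56.1% of protein-coding genes. The type II gene Krt71, which is made in all layers of the sheath, led at 51.3 TPM, followed by the type I gene Krt25 at 38.2 TPM. The type I genes Krt28 and Krt27 were nearly equal, at 21.7 and 21.5 TPM. Of the keratins of the sheath's cuticle, Krt73 stood at 16.6 TPM, Krt72 at 2.93 TPM and Krt26 at 0.301 TPM. Krt71 and Krt25 thus stood 1.34-fold apart, while Krt25 exceeded the cuticle gene Krt26 127-fold. Krt74, the pseudogene, was at 0.295 TPM. All 6 sheath markers that are not keratins were at 1 TPM or more, against the same 56.1% of protein-coding genes. They ran from Gata3, a transcription factor of the sheath, at 38.2 TPM down to the cross-linking enzyme gene Tgm3 at 1.02 TPM. The filament-binding protein gene Tchh stood at 20.9 TPM, Ctsc at 20.7 TPM, Cux1 at 18.2 TPM and Padi3 at 14.4 TPM. The part of sheath cells in these values was not tested.

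Of the hair shaft keratins, 9 of 15 reached 1 TPM, a share near the 56.1% of protein-coding genes. Their median was 1.96 TPM, against 19.0 TPM for the inner root sheath class, and their sum was 59.7 TPM, or 0.539% of the family. Krt35, a type I keratin made early in shaft differentiation, held most of the class's type I level at 28.7 TPM. It was 6.21-fold above the cortex keratin Krt31, at 4.62 TPM. The cuticle keratin Krt32 stood at 4.74 TPM, Krt33a at 4.04 TPM and Krt36 at 1.08 TPM. Of the 6 type II shaft genes read, Krt87 stood at 4.83 TPM, Krt86 at 3.99 TPM, Krt83 at 3.63 TPM and Krt81 at 1.96 TPM. Krt82 and Krt84 were at 0.718 and 0.126 TPM. The type II gene Krt85 was planned for this class, but no member carried that symbol, so the class sums leave it out. The type II genes above 1 TPM are similar in sequence, as are Krt33a and Krt33b, so that the split of reads among them is uncertain. The type I members under 1 TPM ran between 0.0196 TPM for Krt40 and 0.883 TPM for Krt33b.

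Genes of the proteins that embed shaft keratins were mostly under 1 TPM. Of 57 keratin-associated protein genes in the table, 6 were at 1 TPM or more, against 56.1% of protein-coding genes. Another 31 were listed at 0. Krtap8-1 was highest at 17.1 TPM, followed by Krtap7-1 at 9.15 TPM, Krtap17-1 at 4.46 TPM and Krtap11-1 at 4.19 TPM. They summed to 41.8 TPM, against 59.7 TPM for the shaft keratins. Among regulators of shaft keratin genes, Hoxc13 stood at 39.99 TPM, Dlx3 at 37.2 TPM, Msx2 at 8.39 TPM, Lef1 at 4.75 TPM and Foxn1 at 1.51 TPM. The part of shaft and matrix cells in the shaft keratin values was not tested.

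Keratins of the upper follicle and of other epithelia completed the range. Krt79, a type II keratin of the hair canal and upper follicle, was the 6th highest keratin at 107 TPM. The other listed upper follicle markers varied in level. Defb6 was at 283 TPM, Lrig1 at 93.0 TPM, Plet1 at 21.7 TPM and the transcription factor gene Gata6 at 0.774 TPM. The part of upper follicle cells in the level of Krt79 was not tested. Krt80, a type II keratin found in many epithelia, stood at 33.0 TPM. Krt90 was at 0.998 TPM and Krt222 at 0.249 TPM, and Krt88 was listed at 0.

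Simple epithelial keratins were low. Krt8, the type II keratin of simple epithelia, stood at 9.26 TPM and its type I partner Krt18 at 2.42 TPM, a 3.82-fold gap. Krt23 was at 4.40 TPM and Krt7, of ducts and glands, at 3.21 TPM. Krt20, which marks Merkel cells (the touch receptors of the skin) and gut epithelium, was at 0.126 TPM. Apart from Krt8 and Krt18, none of the 12 listed Merkel cell markers reached 1 TPM, against 56.1% of protein-coding genes. The Merkel cell genes Atoh1, Isl1, Cck, Sst and Rab3c were listed at 0.

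Keratins of other stratified epithelia were led by type I genes. Krt24 stood at 19.1 TPM, Krt13, of internal mucosa, at 5.26 TPM and Krt12, the cornea keratin, at 1.82 TPM. The type II genes of this class were lower. Krt78 stood at 1.08 TPM, Krt4, the mucosal partner of Krt13, at 0.0952 TPM and Krt76, of the palate, at 0.0475 TPM. Krt13 was thus 55.3 times the level of Krt4, a ratio that is uncertain because Krt4 was near 0.

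Along the chromosomes, many neighbouring keratin genes differed strongly in level, while others were close. The chromosome 11 members, all type I, spanned 1037 kb from Krt222 to Krt42 (chr11:99232761-100269951). Krt15, Krt14 and Krt17 lay toward its Krt42 end, each between members at far lower levels. Krt15 (chr11:100131759-100135949) had Krt13 at a distance of 10.2 kb, with a 639-fold lower level. On its opposite side Krt19 lay 4.86 kb away, with a 283-fold lower level. Krt17 (chr11:100256215-100261029) was flanked by Krt16 and Krt42 at 7.31 and 1.85 kb, which were 634-fold and 589-fold lower. The largest step between neighbouring members of the family was that from Krt14 (chr11:100203162-100207510) to Krt9, 9.92 kb apart, as Krt9 was near 0. Over the 26 neighbouring pairs of chromosome 11, the median fold between neighbours was 53.0, and 17 pairs differed at least 10-fold. The same was not computed for members that are not neighbours, on either chromosome. Because members range widely in level, such counts alone do not show an effect of position.

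The chromosome 15 members spanned 684 kb from Krt80 to Krt18 (chr15:101348315-102032026) and were type II, except for Krt18, which lies beside its partner Krt8. Krt5 (chr15:101707069-101712905) lay between Krt6a and Krt71, at 12.8 and 21.0 kb, which were 51.9-fold and 74.7-fold lower. Krt79 lay 4.596 kb from Krt4, with a 1130-fold difference in level that is uncertain, as Krt4 was near 0. Steps were smaller here than on chromosome 11, with a median fold of 13.95 over the 24 neighbouring pairs with both levels above 0, and 13 of these pairs differed at least 10-fold. Some runs of neighbours did share a level. Krt81, Krt86 and Krt83 lay next to each other within a 2.03-fold range, though the split of reads among these similar genes is uncertain. Krt27 and Krt28, 13.9 kb apart, differed 1.01-fold. The widest gap between members, 468 kb from Krt40 to Krt33a, holds 23 keratin-associated protein genes in the RefSeq annotation. Of these, 1 reached 1 TPM, against 56.1% of protein-coding genes.

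**Figure D3:**
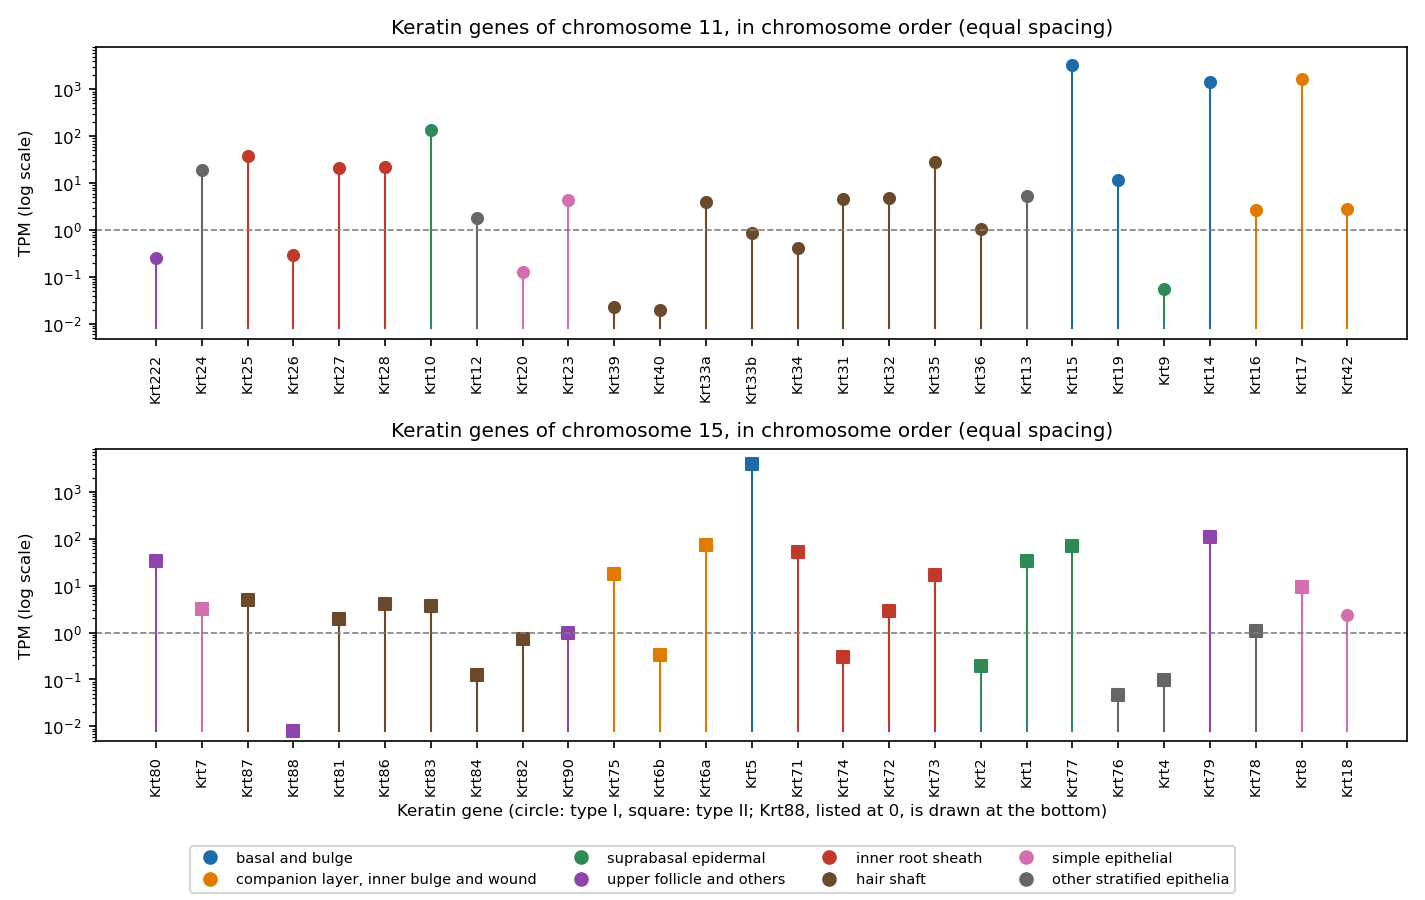
Level of each keratin gene in the anagen library, in TPM on a log axis, with the genes of chromosome 11 (upper panel) and chromosome 15 (lower panel) in chromosome order at equal spacing. Colours give the class, circles type I and squares type II, and the dashed line marks 1 TPM. Krt15, Krt14 and Krt17 stand between members that are at least 283-fold lower, and Krt5 between members that are at least 51.9-fold lower.

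Promoter windows, from 250 bases before to 50 bases after a transcript start, were in the RefSeq sequence table (GRCm38.p6) for 36 of the 54 members. The core promoter motif TATAAA was found on either strand in 19 of them, or 52.8%, against 14.2% of 27025 promoters of all genes. On the sense strand within 40 to 20 bases before the start, where a TATA box usually lies, it was found in 13 of 36, or 36.1%, against 2.13% of all promoters. On either strand, it was in 50% of the 24 windows of members at 1 TPM or more and in 58.3% of the 12 windows of members under 1 TPM. Krt15 and Krt17 had no window. Whether the motif goes with level was not tested. All 7 inner root sheath keratins with a window held TATAAA on either strand, and 5 of them, Krt71, Krt25, Krt28, Krt73 and Krt26, held it in the narrow span. Krt5 and Krt14, the highest keratins with a window, did not hold an exact match. In 6 of the 36 members, Krt14 and Krt10 among them, the window's start lies inside the annotated span of the gene and not at its outer end. The GC-rich motif GGGCGG, bound by Sp1, was in 5.56% of the keratin windows on either strand, against 35.9% of all promoters. The motif GCCNNNGGC, bound by AP-2 factors, was in 19.4%, against 16.5%. Motif matches are letters in a window and were not tested for binding.

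The 80 bases before the transcript start are printed below for the 5 inner root sheath genes with TATAAA in the narrow span. Krt10 and Krt5 are added as an epidermal keratin with an exact match and one without. All lie on the minus strand, and capitals mark TATAAA. Near matches were not searched, and the Krt5 bases hold gataaa, which differs from TATAAA in its first base. The sequences show that Krt26, at 0.301 TPM, carries the motif at the same place as Krt25, at 38.2 TPM. Its first base lies 30 bases before the start in both.
Krt71 (chr15:101743098-101743177): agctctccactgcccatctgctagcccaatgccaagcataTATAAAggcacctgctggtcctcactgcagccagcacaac
Krt25 (chr11:99322952-99323031): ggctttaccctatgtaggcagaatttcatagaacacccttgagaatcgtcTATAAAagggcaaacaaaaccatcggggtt
Krt28 (chr11:99374904-99374983): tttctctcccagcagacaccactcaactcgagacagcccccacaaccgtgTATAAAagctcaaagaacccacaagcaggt
Krt73 (chr15:101802361-101802440): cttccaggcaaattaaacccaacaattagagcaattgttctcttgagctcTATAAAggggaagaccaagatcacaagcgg
Krt26 (chr11:99337966-99338045): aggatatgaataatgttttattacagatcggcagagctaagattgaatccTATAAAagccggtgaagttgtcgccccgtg
Krt10 (chr11:99389365-99389444): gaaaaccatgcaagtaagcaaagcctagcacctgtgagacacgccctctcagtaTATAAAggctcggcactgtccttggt
Krt5 (chr15:101712906-101712985): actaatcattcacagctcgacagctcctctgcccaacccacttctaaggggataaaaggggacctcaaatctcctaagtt

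Genes that anchor, cross-link or regulate keratins gave the setting of these levels. Keratins summed to 19.0 times the 584 TPM of 18 other intermediate filament genes. Against a share of 56.1% of protein-coding genes, 8 of these 18 reached 1 TPM. Among these the nuclear lamin gene Lmna was highest at 366 TPM, followed by Iffo2 at 82.6 TPM, Vim, the filament gene of mesenchymal cells, at 60.5 TPM and Lmnb1 at 57.5 TPM. Krt5 was 63.3-fold above Vim. The lens gene Bfsp2 and the neurofilament gene Nefm were listed at 0.

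All 10 genes of keratin anchoring in the table were at 1 TPM or more, with a median of 60.2 TPM, against 56.1% of protein-coding genes at that level. The desmosomal genes Pkp3, Jup, Dsp and Pkp1, whose products tie keratins to cell junctions, stood at 335, 201, 155 and 98.8 TPM, and Evpl and Tchp were lowest at 14.8 and 6.94 TPM. Regulators of basal keratins were present, with Trp63, which encodes p63, at 162 TPM, Tfap2a at 25.7 TPM and Sp1 at 19.5 TPM. Of the 12 regulators, Vdr, which encodes the vitamin D receptor, was highest at 336 TPM. Klf4, a factor of differentiating epidermis, stood at 46.5 TPM.

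Of the cross-linking and cornification genes, 5 of 8 were at 1 TPM or more, against 56.1% of protein-coding genes, and their median was 1.34 TPM. The transglutaminase gene Tgm5 stood at 23.9 TPM, Tchh at 20.9 TPM and the peptidylarginine deiminase gene Padi3 at 14.4 TPM. Tgm1 and Tgm3 followed at 1.66 and 1.02 TPM. Padi1, Hrnr and Flg were at 0.392, 0.246 and 0.00794 TPM.

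**Figure D4:**
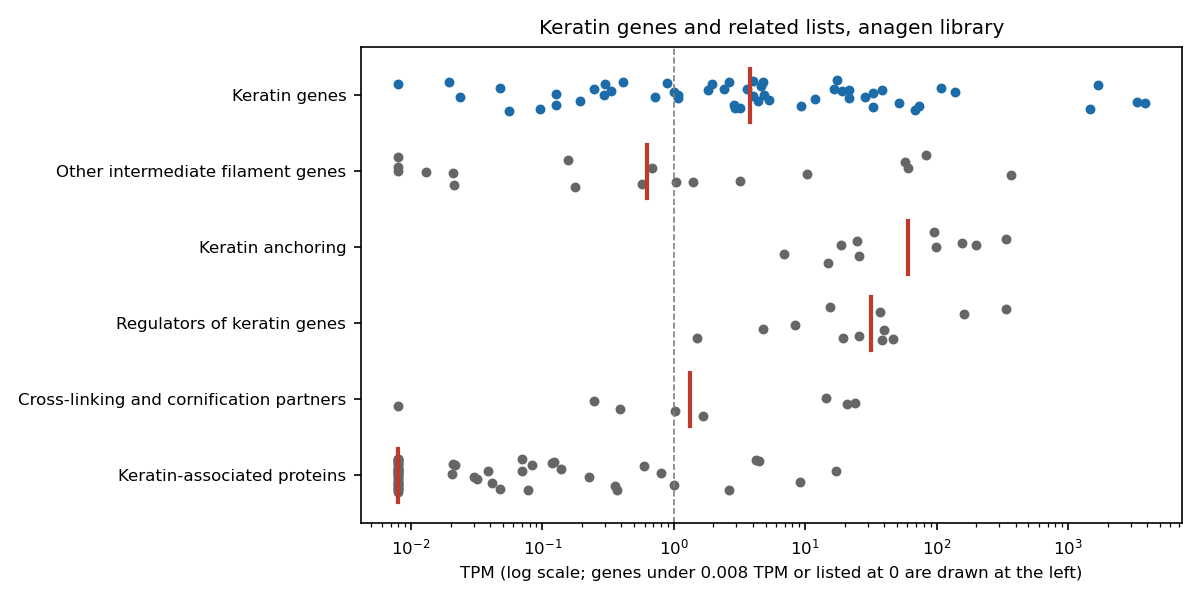
Level of each gene in the anagen library, in TPM on a log axis, for the 54 keratins (top) and 5 lists of related genes. Each point is a gene, red bars are medians, the dashed line marks 1 TPM, and genes at the far left are near or at 0. The keratins span the widest range, with a median of 3.81 TPM, and the anchoring genes lie between 6.94 and 335 TPM.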

How the data were processed

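RNA of sorted cells was sequenced as paired ends on an Illumina HiSeq instrument from an mRNA library, per the labels' protocols. The authors deposited TPM values, per the file headers. Bowtie2 2.2.9, RSEM 1.2.30 and the mm10 build (GRCm38) are named in the submitters' processing notes. The gene annotation is not given in the sources used here. The column named 1 was matched to the anagen sample, the only sample whose title carries that number. The other 11 columns of sample values were not used.

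Each gene ID was used once, which left 42392 IDs of 42661 rows summing to 1000000 TPM. Missing symbols of genes outside the family came from a gene name table. Biotypes and positions came from RefSeq (GRCm38.p6), matched by symbol, with 20723 nuclear protein-coding genes. Motifs were searched in the first promoter window of each symbol. Depth is unknown, so no interval, detection floor or test was possible. Protein features were planned and not computed, as were the partner pairs of Krt85 with Krt35 and with Krt31.

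Every member at 1 TPM or more is named, as are members near that level. Members, classes and lists were chosen with earlier results of these data known. Python 3.11.15, pandas 2.3.3, numpy 2.4.6 and matplotlib 3.10.9 were used. The motif search was tested on simulated data.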

Additional observations from a re-analysis of the deposited data

How the results depend on the processing

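No paired analysis was possible because 1 library was used and no test was made, and for the same reason no replicate could be left out. Values were taken to depend on a setting where they moved by over 1.5 times. With another level for counting a gene, 48 members reached 0.1 TPM, 21 reached 5 TPM and 19 reached 10 TPM, and 40 reached 1 TPM after either rescaling. The family's share of TPM was 1.10% over all rows, 1.37% without mitochondrial genes and 2.32% of nuclear protein-coding genes. The type I to type II ratio was 7.94 without the highest gene of each type and turned to 0.724 among members under 1000 TPM. It was 1.205 without Krt17 and 1.26 in the basal and bulge class, both chosen after seeing the data. The 3 highest keratins held 80.03% of keratin TPM, the 5 highest 94.5% and the 10 highest 97.5%. Leaving out similar proteins was not run.

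Class medians rest on few genes. Counting only members at 0.1 TPM or more, the median was 51.0 TPM for suprabasal, 17.0 TPM for upper follicle and other, 3.63 TPM for hair shaft and 3.54 TPM for other stratified keratins. As geometric means with pseudocounts of 0.1 and 1 TPM, the level was 689.8 and 702 TPM for basal and bulge, 6.69 and 12.3 TPM for suprabasal, 2.57 and 5.21 TPM for upper follicle and other, and 7.13 and 9.25 TPM for inner root sheath keratins. With a pseudocount of 1 TPM it was 17.8 TPM for companion and wound keratins. The basal and bulge class was highest under all 4 summaries, and the order of the other classes changed.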
